A study of Oryzias latipes with 60 samples.

Results

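The response of wild-type medaka (Oryzias latipes, the Japanese rice fish) to cisplatin was measured by RNA sequencing of whole juvenile fish. The labels give total RNA of high integrity as the starting material and do not state how messenger RNA was selected. The comparison takes 10 of the 60 libraries of the series, chosen by their labels: 5 wild-type fish held in petri dishes for 5 days with 70 µM cisplatin (fish 38 to 42), and 5 wild-type fish held in dishes for the same time with saline, the vehicle of cisplatin (fish 33 to 37). All fish were 3 to 4 weeks old and about 10 mm long, and neither group carries a transgene. Other groups are used only beside these: 10 cisplatin and 5 saline fish transgenic for xmrk, an oncogenic receptor tyrosine kinase related to the epidermal growth factor receptor; 5 wild-type fish given 20 nM trametinib and 5 given its vehicle DMSO, likewise for 5 days in a dish; and 5 untreated wild-type fish from ordinary housing. Also in the series are transgenic fish given DMSO (n = 5), 20 nM trametinib (n = 10) or no treatment (n = 5). They enter only the scaling over all 60 libraries and the fit of all 10 groups. The promoter that drives the xmrk transgene is not given in the sources used here. Each title carries its own fish number, so a library is treated as 1 fish. The labels do not state which fish shared a dish, so the effect of the dish and that of the drug cannot be told apart. Where nothing says that fish were kept apart, p-values measure the spread between these libraries.

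Cisplatin is a platinum compound that binds to purine bases and links them within and between the strands of DNA. The links stall DNA and RNA polymerases and are removed by nucleotide excision repair and by the Fanconi and homologous recombination pathways. Damage that persists activates the p53 pathway, which halts the cell cycle or starts apoptosis, and dividing cells are the most sensitive. In zebrafish the drug also kills the sensory hair cells of the lateral line. These statements are background. The deposited table names genes by Ensembl identifiers only, 0 of its 20459 identifiers matched the reference at hand, and none of these pathways, nor any marker of a tissue, could be looked up. Genes are therefore given by identifier, without a statement of what they encode. In whole fish, fewer cells of a type and less RNA per cell cannot be told apart.

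The make-up of the libraries differed between the groups. Genes were ranked by their mean CPM (reads per 1000000 counts of the library), not corrected for gene length, in the 5 untreated wild-type fish, which belong to neither group. The 10 genes with the most reads took 14.3% ± 0.588 of the counts in cisplatin fish and 11.6% ± 1.14 in saline fish (SD, n = 5 each; two-sided exact permutation test p = 0.00794, which is the lowest value possible with 10 fish, and adjusted p = 0.0139 for 7 measures tested). Genes of rank 11 to 100 took 24.0% ± 2.31 in cisplatin fish and 20.1% ± 1.02 in saline fish (exact permutation adjusted p = 0.0139). Genes ranked above 1000, which are the great majority, took 33.7% ± 3.39 in cisplatin fish and 40.2% ± 2.00 in saline fish (exact permutation adjusted p = 0.0139). In these 3 classes every cisplatin fish lay on the same side of all 5 saline fish. The classes together make up the whole library, so a larger share in some means a smaller share in others. These differences are therefore not independent results. In untreated wild-type fish the same classes held 9.99% ± 0.539, 18.9% ± 0.435 and 41.8% ± 0.539 of the counts (n = 5). Of these 3 classes, only the first differed in the same direction in the means of transgenic fish, which were not tested. The first class held 11.3% ± 0.740 in 10 transgenic cisplatin and 10.4% ± 2.47 in 5 transgenic saline fish. Rank 11 to 100 held 23.6% ± 5.08 in transgenic cisplatin and 24.4% ± 6.04 in transgenic saline fish. Genes ranked above 1000 held 36.1% ± 6.69 in transgenic cisplatin fish and 34.9% ± 7.74 in transgenic saline fish. The 900 genes between these classes took 28.0% ± 0.792 in cisplatin fish and 28.2% ± 0.357 in saline fish (exact permutation adjusted p = 0.769). Total counts lay between 44271352 and 65010144 in cisplatin fish and between 34788594 and 64433250 in saline fish (exact permutation adjusted p = 0.881), and the number of genes with a read between 19097 and 19414 and between 19258 and 19387.

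**Figure D1:**
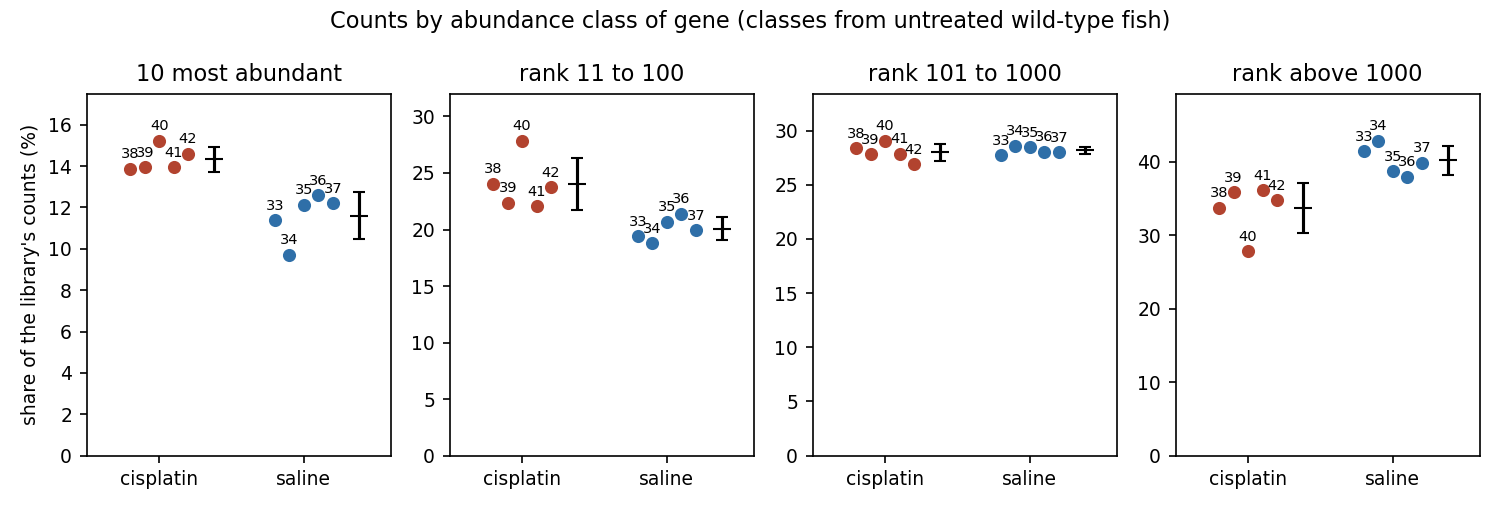
Share of each library's counts (%, y axis from 0) in 4 classes of genes ranked by reads in untreated wild-type fish, for cisplatin (red) and saline (blue) wild-type fish; points are fish with their numbers, and the black mark is the mean with its SD (n = 5). The 5 cisplatin fish lie above the 5 saline fish in the first 2 classes and below them among genes ranked above 1000, where fish 40 is lowest at 27.9%.

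Cisplatin fish 40 stood apart from all other fish. Genes ranked above 1000 held 27.9% of its counts, against 33.7% to 36.1% in the other 4 cisplatin fish. Its TMM factor, the scaling that compensates such a shift, was 0.713, against 0.915 to 0.995 in the other cisplatin fish and 1.02 to 1.16 in saline fish. Its root mean square log2 difference from the other cisplatin fish was 0.954, against 0.713 to 0.745 for the other 4 and 0.663 to 0.789 among saline fish. The median SD of log2 CPM (TMM scaled) over 18342 genes was 0.343 in cisplatin fish and 0.230 in saline fish, but 0.204 in cisplatin fish without fish 40. The nearest library was one of the same group for 9 of the 10 fish. The exception was saline fish 37, which was nearest to cisplatin fish 39 (root mean square log2 difference 0.616).

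A second source of variation ran across both groups. ENSORLG00000007271, a gene chosen after its values were seen because they split the fish within each group, stood at 38.6 CPM in cisplatin fish 38 and 26.2 CPM in fish 42, and at 0.237 to 0.365 CPM in cisplatin fish 39 to 41. In saline fish 33 and 34 it stood at 62.3 and 83.9 CPM, and in saline fish 35 to 37 at 0.166 to 0.704 CPM. Both groups thus hold 2 high and 3 low fish. The second principal component of the 10 libraries placed fish 33, 34, 38 and 42 on one side together with fish 40.

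**Figure D2:**
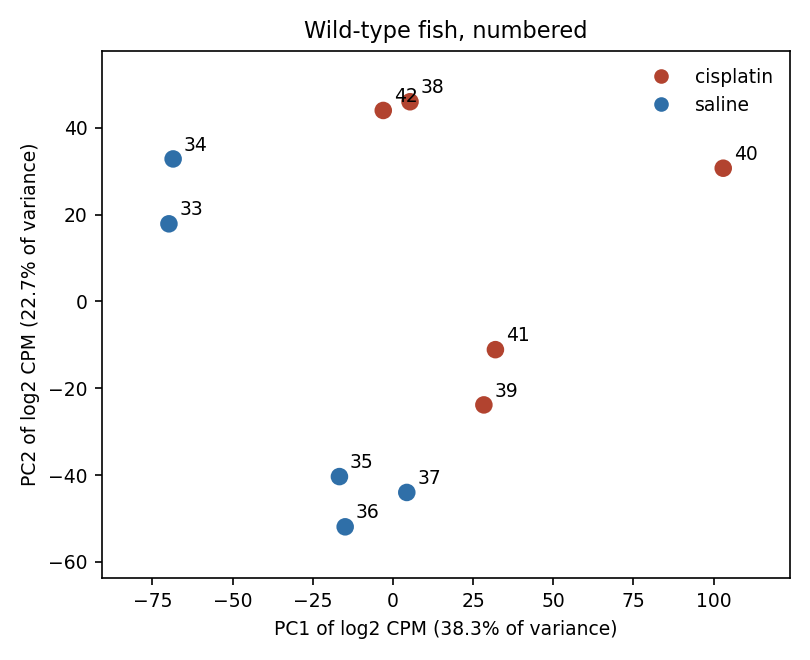
First and second principal components of log2 CPM of the 10 wild-type libraries, with 38.3% and 22.7% of the variance; points are fish with their numbers, cisplatin in red and saline in blue. Fish 40 lies at the far right at 103 on the first component, and saline fish 37 (4.32) lies close to cisplatin fish 38 (5.33) on that axis, while the second component separates fish 33, 34, 38, 40 and 42 from the others.

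Cisplatin was followed by many modest changes in wild-type fish. With these 10 libraries alone, 2657 of 18342 genes (14.5%) passed edgeR's quasi-likelihood test at an adjusted p (Benjamini-Hochberg) under 0.05, 931 higher (5.08% of those tested) and 1726 lower (9.41%) in cisplatin fish. Among called genes the falls were larger than the rises: the median log2 fold change was -1.03 over the genes that fell and 0.70 over those that rose. Over all genes tested the median was 0.00, with quartiles of -0.35 and 0.28. The called falls were lower in level than the called rises, and the part that the calling has in this difference was not tested. At least 2-fold changes were seen in 1130 genes (6.16% of those tested), 196 higher and 934 lower, and at least 4-fold changes in 15 higher and 67 lower genes. In 2073 of the 2657 genes the 5 cisplatin fish did not overlap the 5 saline fish, and in the remaining 22.0% they did. Over all 18342 genes, 3082 (16.8%) did not overlap. The calls were made from these same fish, so the larger share among called genes follows in large part from the calling. No gene with at least 10 reads in every fish of one group was without a read in the other group.

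This count depended on which libraries were in the fit and on how they were scaled. When saline and cisplatin fish of both genotypes shared a fit of 25 libraries, 14 genes were called for the same wild-type contrast, 9 higher and 5 lower, all of them among the 2657. The common biological coefficient of variation was 0.509 in that fit and 0.321 in the 10 libraries. Without the 4 libraries of low TMM factor (wild-type cisplatin fish 40, transgenic saline fish 17 and transgenic cisplatin fish 21 and 31) the shared fit called 2259 genes, 973 higher and 1286 lower, 1750 of them among the 2657. The TMM factor is computed from these same counts, and no cut-off for a low factor is given here. The count with the 10 libraries was 3283 without fish 40, and 1457, 1588 and 1640 without saline fish 33, 35 or 36. Scaling by library totals alone, which moves the median log2 fold change of all genes to -0.27, called 237 higher and 2819 lower genes.

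The direction of the calls followed the level of the gene. Of the 100 genes with the most reads in untreated fish, 18 rose (2 of the first 10 and 16 of the next 90) and 2 fell. Among the 900 genes that follow, 80 rose and 23 fell, and among the 17342 ranked above 1000, 833 rose (4.80%) and 1701 fell (9.81%). The median log2 fold change was 0.35, 0.45, 0.21 and -0.02 from the first class to the last, relative to TMM scaling. The genes that rose had a median average log2 CPM of 4.92 and those that fell one of 2.56, beside 3.71 over all genes tested.

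**Figure D3:**
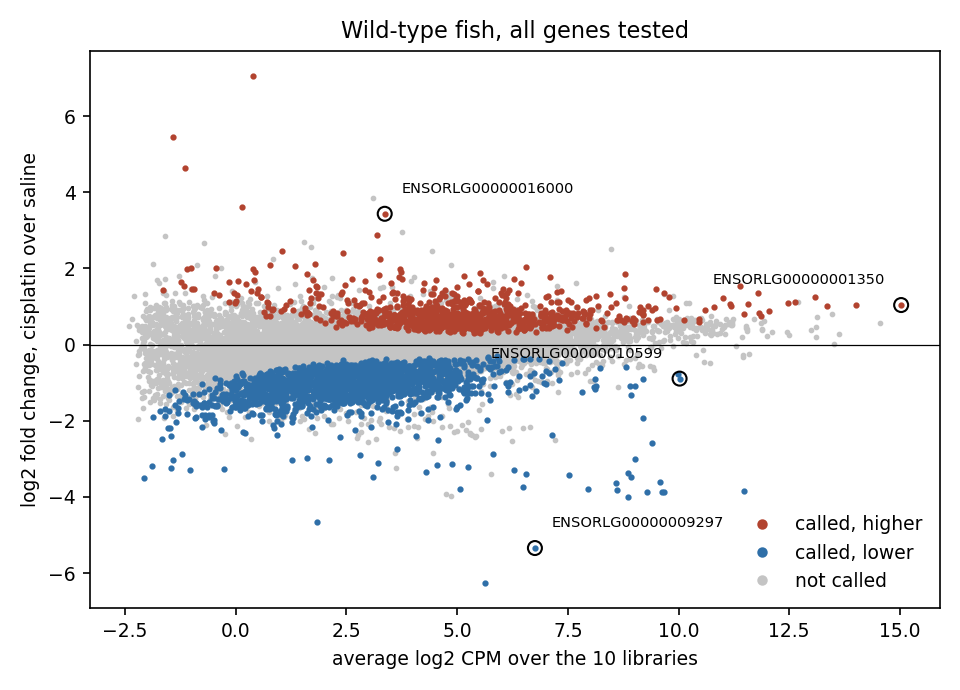
Log2 fold change of cisplatin over saline wild-type fish (y axis) against the average log2 CPM over the 10 libraries (x axis) for 18342 genes; red and blue points are the 931 called higher and 1726 called lower genes, grey points were not called, and circles mark the 4 genes described by identifier. Calls at high average levels are mostly red and calls at low levels mostly blue.

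Leaving aside genes whose average log2 CPM was under 1 or whose groups overlapped, 601 called genes rose and 1183 fell; of these, those with the largest fold change and those with the most reads in each direction are described. ENSORLG00000016000 had the largest rise. It stood at 16.0, 8.89, 37.9, 19.1 and 12.2 CPM in cisplatin fish 38 to 42, against 2.33, 2.89, 0.101, 0.0993 and 3.31 CPM in saline fish 33 to 37. All cisplatin fish were higher than all saline fish, and the saline fish fell apart into 3 near 3 CPM and 2 with 6 reads each. The mean was 10.8-fold higher in the fit (log2 fold change 3.43, SE 0.92, edgeR adjusted p = 0.0371). Leaving out 1 fish ended this call in 6 of 10 cases (log2 fold changes 2.99 to 3.82, adjusted p 0.0413 to 0.0847), and so did the shared fit of both genotypes (adjusted p = 0.434), also without the libraries of low TMM factor (adjusted p = 0.141). With scaling over all 60 libraries, wild-type cisplatin fish stood at 9.25 to 39.4 CPM (median 16.6). Wild-type DMSO fish at 2.29 to 32.1 CPM (median 6.92) and wild-type trametinib fish at 5.68 to 15.6 CPM (median 9.26) overlapped them. Untreated wild-type fish, at 1.80 to 7.47 CPM, did not.

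ENSORLG00000001350 had the highest read count of all genes tested and rose 2.05-fold. It stood at 41353, 38842, 67611, 39911 and 37099 CPM in cisplatin fish 38 to 42, against 16524, 16304, 23388, 21339 and 31957 CPM in saline fish 33 to 37. The 2 groups were apart, with fish 40 far above the other cisplatin fish and fish 37 the highest of the saline fish. This gene alone held 3.99% of the counts in cisplatin fish and 2.42% in saline fish on average. Its log2 fold change was 1.04 (SE 0.26, edgeR adjusted p = 0.0200), and 0.83 without fish 40. With scaling by library totals alone it was 0.72 (SE 0.18, edgeR adjusted p = 0.0201). The call was lost without saline fish 33 (adjusted p = 0.0591) and in the shared fit of both genotypes (log2 fold change 1.04, adjusted p = 0.438). That fit called the gene without the libraries of low TMM factor (log2 fold change 0.86, adjusted p = 0.0308). With scaling over all 60 libraries, wild-type cisplatin fish stood at 38811 to 70300 CPM (median 41605). Wild-type DMSO fish at 14700 to 49657 CPM (median 25652) and transgenic saline fish at 17219 to 65698 CPM (median 33917) overlapped them. Untreated wild-type fish, at 13429 to 21549 CPM, did not.

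ENSORLG00000009297 had the largest fall, 40.6-fold. It stood at 3.56, 2.73, 5.68, 7.08 and 6.91 CPM in cisplatin fish 38 to 42, against 15.5, 696, 48.5, 81.8 and 213 CPM in saline fish 33 to 37. The cisplatin fish lay within a narrow range, while the saline fish spread widely above them. The log2 fold change was -5.34 (SE 1.05, edgeR adjusted p = 0.0112) and lay between -5.63 and -4.10 with 1 fish left out, called each time. With scaling over all 60 libraries, 5 untreated wild-type fish stood at 2.63 to 11.8 CPM with a median of 5.92, cisplatin fish at a median of 5.91 and saline fish at a median of 84.2. Wild-type fish in DMSO stood at 72.3 to 322 CPM (median 167). The wild-type cisplatin fish lay within the range of the untreated fish, and all wild-type fish in either vehicle lay above that range. These differences from untreated fish were not tested here.

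ENSORLG00000010599, the gene with the most reads among such falls, was at 528, 720, 1007, 702 and 686 CPM in cisplatin fish 38 to 42, against 1307, 1168, 1596, 1533 and 1166 CPM in saline fish 33 to 37. All cisplatin fish were lower than all saline fish, with fish 40 closest to them. The fall was 1.86-fold (log2 fold change -0.89, SE 0.18, edgeR adjusted p = 0.00885) and was called with any 1 fish left out, but not in the shared fit of both genotypes (log2 fold change -0.89, adjusted p = 0.414). Without the libraries of low TMM factor that fit called it (log2 fold change -1.02, adjusted p = 0.0348). With scaling over all 60 libraries, wild-type cisplatin fish stood at 549 to 1047 CPM (median 732). Untreated wild-type fish at 934 to 1336 CPM, wild-type DMSO fish at 775 to 1272 CPM and wild-type trametinib fish at 687 to 1189 CPM overlapped them.

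**Figure D4:**
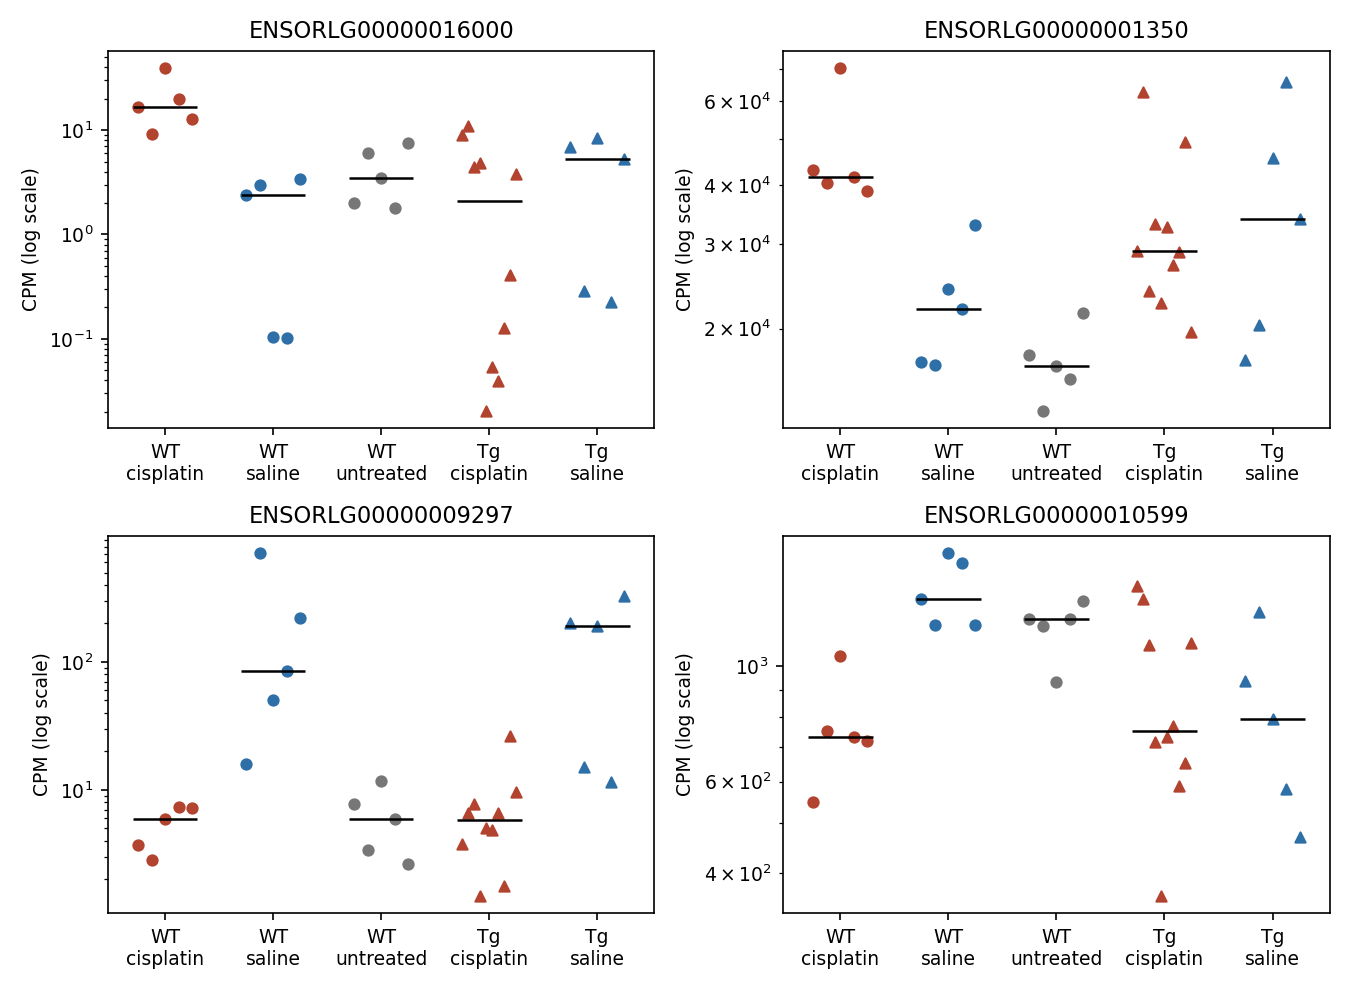
CPM (log axis, scaled over all 60 libraries) of the 4 genes in wild-type (WT) cisplatin, saline and untreated fish (circles) and in xmrk transgenic (Tg) cisplatin and saline fish (triangles); points are fish and black lines are medians. WT cisplatin fish lie apart from WT saline fish in every panel, as the rule that chose the genes required. In ENSORLG00000009297 the WT cisplatin fish lie with the untreated fish. The rule did not use the transgenic fish, and their cisplatin and saline points overlap in all 4 panels.

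Whether each fish followed its group was read from genes chosen without it. For each fish, genes were called among the other 9 libraries, and the fish was set against the midpoint of the 2 group means of those 9. Over all tested genes, the fish left out lay on the side of its own group for 54.3% to 77.7% of them, with the highest share in saline fish 33. Over the called genes that fell, it lay on the side of its own group for 79.2% to 98.8% of the genes in 9 of the 10 fish, and for 68.3% in cisplatin fish 39, the fish with the 54.3% over all genes. Over the called genes that rose, the share was 68% to 95.8% in 9 fish, each above its own share over all genes. Saline fish 37 was the exception: 44.6% of 1197 rising genes lay on the saline side, below the 58.6% over all its genes, and its median lay 0.05 log2 units to the cisplatin side. Cisplatin fish 40 lay farthest from the midpoint, at a median of 0.64 log2 units for genes that rose without it and -0.88 for genes that fell. Across all tested genes these medians were within 0.03 of 0 in every fish, a value that TMM scaling over the libraries holds near 0.

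The transgenic fish gave the same drug comparison in 15 libraries that share none with the wild-type fish. In their own fit 14 of 18500 genes (0.0757%) were called, 2 higher and 12 lower. Of these 14 genes, 10 were called in the same direction in wild-type fish, 2 higher and 8 lower. Over all genes tested in wild-type fish, 5.08% were called higher and 9.41% lower. The 10 shared genes were 71.4% of the transgenic and 0.376% of the wild-type list. ENSORLG00000009297 was among them, with a log2 fold change of -4.32 (SE 0.73, edgeR adjusted p = 0.0446) in transgenic fish. With scaling over all 60 libraries it was at a median of 5.81 CPM (range 1.48 to 26.4) in 10 transgenic cisplatin fish, against a median of 190 CPM (range 11.5 to 326) in 5 transgenic saline fish, so the groups overlapped.

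The bulk of the wild-type list did not move the same way in transgenic fish. The genes that fell in wild-type fish had a median log2 fold change of 0.24 in transgenic fish, and 81.4% of the 1724 tested there were higher under cisplatin, beside 55.9% of all 18254 genes tested in both. The genes that rose in wild-type fish had a median of -0.08, with 42.7% of 930 higher. Both lists differ from all genes in level, and no share was taken over genes of like level. Without transgenic fish 17, 21 and 31, the libraries of low TMM factor, the medians were 0.27 and -0.08 and the shares higher 87.1% and 36%, beside 54.1% of all genes. That smaller fit called 235 of 18545 genes (1.27%), of which 36 shared the direction of a wild-type call and 2 opposed one. These 36 were 15.3% of the transgenic list and 1.35% of the wild-type list. By direction, 11 of the 32 transgenic calls that rose and 25 of the 203 that fell shared a wild-type call. Of all genes tested in wild-type fish, 5.08% were called higher and 9.41% lower. The overlap itself was not tested. ENSORLG00000016000 (log2 fold change -0.34, SE 1.19), ENSORLG00000001350 (-0.14, SE 0.45) and ENSORLG00000010599 (0.14, SE 0.36) were not called in transgenic fish (edgeR adjusted p = 0.983 for each).

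The difference of the responses was tested in a fit of the 25 saline and cisplatin libraries. It was called for 1 of 18690 genes (0.00535%), with 1806 at an unadjusted p under 0.05, for 40 genes by DESeq2 and 1 by limma-voom. The number was 1922 by edgeR without the 4 libraries of low TMM factor, 1090 of them with a more positive and 832 with a more negative response in transgenic fish. The gene called was ENSORLG00000009468. It stood at 54.7, 63.1, 69.3, 78.0 and 56.7 CPM in wild-type cisplatin fish 38 to 42, against 17.7, 22.1, 23.5, 29.6 and 29.0 CPM in wild-type saline fish 33 to 37, groups that lie well apart. Its log2 fold change was 1.40 (SE 0.16, edgeR adjusted p = 0.00119) in wild-type fish and -0.60 (SE 0.23, adjusted p = 0.883) in transgenic fish, a difference of -1.999 (SE 0.30, adjusted p = 0.0126). With scaling over all 60 libraries, untreated wild-type fish stood at 35.5 to 127 CPM (median 48.1). That range held the wild-type cisplatin fish (56.9 to 81.3 CPM), and the wild-type saline fish (18.3 to 30.5 CPM) lay below it. Wild-type DMSO fish stood at 18.4 to 83.0 CPM (median 30.2). These differences from untreated fish were not tested. Of the differences in the other direction, ENSORLG00000014975 had the smallest p and missed the threshold (log2 difference 2.38, SE 0.57, adjusted p = 0.497; 0.0270 by DESeq2, and 0.0285 by edgeR without the 4 libraries). It had 12 to 30 reads in wild-type cisplatin fish and 53 to 196 in wild-type saline fish.

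Trametinib, an inhibitor of the kinase MEK, was compared with DMSO in wild-type fish from 10 other libraries. The genes that fell under cisplatin had a median log2 fold change of 0.42 under trametinib, and 89.1% of 1726 were higher, beside 51.5% of all genes. The genes that rose under cisplatin had a median of -0.46, and 83.0% of 926 were lower, beside 48.5% of all genes. Few of these were called under trametinib: 4 of the 1726 were called higher and 1 of the 926 lower, where 47 of 18414 genes (0.255%) were called in all. ENSORLG00000001350 had a log2 fold change of -1.20 under trametinib (SE 0.36, edgeR adjusted p = 0.163). The lists differ from all genes in level. Their median average log2 CPM in the wild-type cisplatin comparison was 2.56 for falls and 4.92 for rises, beside 3.71 over all genes. No share was taken over genes of like level, so the shares over all genes are not a matched baseline. These are descriptions of medians, with no test of the lists.

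**Figure D5:**
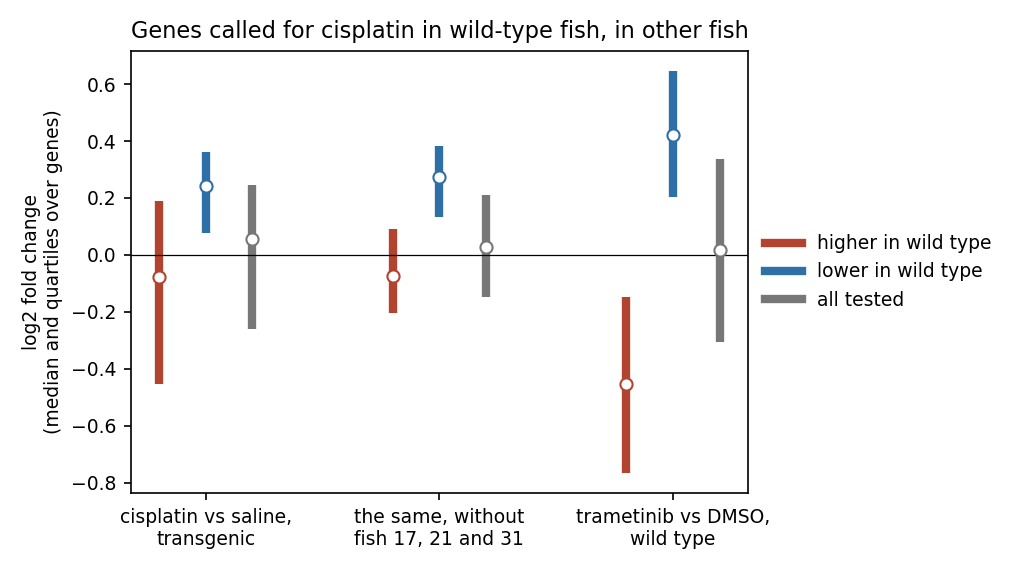
Median (white point) and quartiles (bar) of log2 fold changes over the genes called higher (red) or lower (blue) for cisplatin in wild-type fish and over all genes tested (grey), in comparisons made with other fish. The blue medians of 0.24, 0.27 and 0.42 lie above 0 and the red medians of -0.08, -0.08 and -0.46 below it, opposite in sign to the wild-type cisplatin response. In transgenic fish the red medians are close to 0 and the red quartiles lie on both sides of it (-0.45 to 0.19, and -0.20 to 0.09 without fish 17, 21 and 31).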

How the data were processed

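The authors deposited raw read counts per gene for 60 libraries, and each column was matched to a sample by its title. The submitters' processing notes list TopHat2 with version 2.2.4, and featureCounts. Not given in the sources used here were the build, the annotation, strandedness and the handling of multiply mapped reads. Values of near-identical copies and of overlapping genes are therefore uncertain.

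The analysis used edgeR 4.0.16 in R 4.3.3: filterByExpr on the groups, TMM scaling, robust dispersions and the quasi-likelihood F test, with Benjamini-Hochberg adjustment over all genes tested and calls at an adjusted p under 0.05. Standard errors come from the F statistic. CPM values are TMM scaled within the 10 libraries unless stated, and log2 CPM used a prior count of 2. DESeq2 1.42.0, limma-voom (limma 3.58.1), other scalings, filters and sample sets, a surrogate variable (sva 3.50.0) and each fish left out were alternatives. Library measures were compared by 7 two-sided exact permutation tests.

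The members and lists were chosen with earlier results of these data known. As 0 identifiers matched a symbol, the 34 gene lists were not tested, and the rule for naming genes took, in each direction, the called gene with the largest fold change and the one with the highest average log2 CPM, among genes of average log2 CPM of at least 1 whose groups did not overlap, and for the difference between genotypes the gene of smallest p in each direction. The scripts were tested on simulated data. The 20 pairs of libraries within the groups differed by at least 46.5 in chi-square per gene, so none was counted as a duplicate. Depth was 34788594 to 65010144 counts per library.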

Additional observations from a re-analysis of the deposited data

Results flagged for a closer look

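In 26 groups of 5 fish (named genes and library measures), 2 had a fish far from the others, and chance flags about 1 in 20 such groups. Both concern wild-type cisplatin fish 40. Its TMM factor was 0.713, against 0.915 to 0.995 in the other 4 cisplatin fish. ENSORLG00000001350 stood at 67610 CPM in fish 40, against 37099 to 41353 CPM in the other 4. CPM values are scaled by the TMM factor, so these 2 flags are not independent. The part that the library's make-up has in this level was not tested.

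The response of ENSORLG00000009468 differed between genotypes by a log2 difference of -1.999 (transgenic minus wild-type). In wild-type fish the gene was higher under cisplatin than in saline, though within the range of untreated fish, and in transgenic fish it was not called. This difference rests on the comparison with saline fish. The difference was called by edgeR, DESeq2 and limma-voom, with the filter of 1 CPM in 5 fish and when the 4 libraries whose TMM factor was low were left out.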

How the results depend on the processing

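The wild-type count of 2657 calls was 4104 with DESeq2 (1806 higher and 2298 lower), 14 with both genotypes in the fit and 43 with all 10 groups (27 higher and 16 lower), and 1457 to 3283 with 1 fish left out. It stayed within 1.5 times under the 8 other settings (2259 to 3056), which include 1 surrogate variable (2440) and the shared fit without libraries of low TMM factor (2259), both added after the data were seen. The 1130 calls of at least 2-fold became 13 with both genotypes in the fit and 35 with all 10 groups. They became 819 in the shared fit without libraries of low TMM factor, and 806 to 1273 with 1 fish left out. No gene called under these settings was called in the opposite direction from the 10 libraries, which follows largely from the wild-type fish that the fits share. The difference of responses gave 40 genes with DESeq2 and 1922 without 4 libraries, and the transgenic comparison 110 with DESeq2 and 235 without 3 libraries, in place of 14. With classes of genes set from wild-type DMSO fish, the share of the 900 genes after the first 100 differed by -1.49 points (exact permutation adjusted p = 0.0333), in place of -0.173. With 1 fish left out, the differences in the TMM factor (-0.221 to -0.130) and in the shares of the 10 genes with the most reads (2.24 to 2.96 points), of rank 11 to 100 (3.00 to 4.45) and above 1000 (-7.12 to -5.05) passed the threshold each time, and those that had not been called changed sign: total count -5811260 to 1599910, genes with a read -73.4 to 5.85, share of those 900 genes -0.440 to 0.0982 points. The cause of these changes was not tested. No paired analysis was possible because the groups share no fish numbers.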

Other observations

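A set of 12 genes was taken after the values were seen: called, at least 4-fold lower in wild-type cisplatin fish and at or above 8 in average log2 CPM. Their log2 fold changes lay between -4.00 and -2.57, and together they held 0.131% of the counts in cisplatin fish and 1.85% in saline fish on average. Their median level, scaled over all 60 libraries, was 181, 88.7, 63.0, 72 and 68.8 CPM in cisplatin fish 38 to 42, against 866, 990, 1871, 1472 and 60.4 CPM in saline fish 33 to 37. For these genes saline fish 37 thus lay with the cisplatin fish: it was the lowest saline fish for all 12, and below the highest cisplatin fish for all 12. As the genes were chosen as steep falls in these same fish, the distance of the other saline fish follows in part from the choice. Untreated wild-type fish stood at 51.3 to 147 CPM, and wild-type DMSO fish were split, with fish 43 and 44 at 1896 and 1557 CPM and fish 45 to 47 at 146, 74.7 and 70.7 CPM. Transgenic saline fish had a median of 65.0 CPM, with fish 14, 15, 16 and 18 at 65.0, 3.50, 30.4 and 78.7 CPM and fish 17 at 1195 CPM. The 10 transgenic cisplatin fish stood at 7.01 to 173 CPM, so only fish 17 of the transgenic saline fish lay above their range. In the transgenic fit the 12 genes had log2 fold changes of -3.33 to -1.73, and 0 of 12 were called (edgeR adjusted p 0.738 to 0.983). The genes include 3 pairs in consecutive rows of the table. Whether these pairs are similar copies that share reads could not be checked.

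The 3 called genes with a log2 fold change of at least 4, also taken after the values were seen, lay in consecutive rows and had few reads. Each had 9 to 239 reads in every cisplatin fish and 0 to 5 reads in every saline fish. Untreated wild-type fish had a median level of 0.0386 to 0.575 CPM for these genes, against 0.423 to 1.42 CPM in wild-type cisplatin fish and 0 to 0.0694 CPM in wild-type saline fish. The 2 tested in transgenic fish had log2 fold changes of 3.44 and 5.00 there, beside 4.65 to 7.05 over the 3 genes in wild-type fish, and missed the threshold (edgeR adjusted p 0.232 to 0.594). With so few reads these fitted values depend on the prior count.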
